A study of Drosophila melanogaster with 80 samples.

Results

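Gene expression was compared between F1 male flies that ate a high-sucrose diet (HSD) and F1 males that ate a control diet (CD). The 16 arrays were chosen by their labels (F1, male, and the diet the flies themselves were fed), 8 for each diet, out of 80 arrays in the series. Each array, an Affymetrix Drosophila Genome 2.0, held RNA of whole adult flies of Oregon R, a laboratory wild-type strain. The study set the diet of fathers and grandfathers beside that of the flies themselves. The 16 arrays formed 4 groups of 4: CD-fed and HSD-fed F1 males descended from F0 males kept on CD, and CD-fed and HSD-fed F1 males descended from F0 males kept on HSD. The diet of those F0 males is called ancestry below. CD held 0.15 M and HSD 1 M sucrose, and unmated males aged 3 to 4 days at the start lived on it for 14 days at 25 °C in vials of 30. F0 males (4 arrays on each diet, in 1 batch) and F2 males (8 on each diet) served for comparison. The labels name neither the mothers of the F1 flies nor separate vials for the 4 arrays of a group, so p-values may measure technical spread alone.

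Dietary sucrose is split in the fly midgut by maltases and other glucosidases, and the sugars are stored in the fat body as glycogen and triglyceride or circulate as trehalose. The transcription factors Mondo-Mlx and Sugarbabe turn on genes of sugar use and fat synthesis when sugar is high, while insulin-like peptides and adipokinetic hormone set storage against release. A sugar-rich diet is widely used in Drosophila as a model of insulin resistance and fat gain.

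Own diet and batch coincided in F1. All 8 CD-fed arrays carried 1 batch label and all 8 HSD-fed arrays another, so for F1 males the diet and the batch cannot be told apart. In F0 males both diets shared 1 batch. The deposited log2 values also came from 2 normalization sets: the sorted values of the 8 CD-fed arrays differed by a median of 0.10 log2 units, those of the 8 HSD-fed arrays by 0.04, and those of all 16 by 0.54. Deposited array medians were 6.76 to 6.88 with CD and 7.29 to 7.34 with HSD. The 16 arrays were therefore quantile-normalized together, and what follows rests on large changes and their rank. A large change means an adjusted p under 0.05 with a difference of at least 1 on the log2 scale, which is a 2-fold difference. Changes are HSD-fed minus CD-fed on the log2 scale, from limma with ancestry as a term, and the number of arrays limits their precision. All 16 arrays held male transcripts: the sex peptide gene SP lay between 12.80 and 13.28, and the testis tubulin gene betaTub85D between 11.87 and 12.43. The mean of 89 female-limited genes was 5.93 and 5.86 in replicates 1 and 4 of the CD-fed males of HSD ancestry and 5.07 to 5.55 in the other 14 arrays.

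The control probe sets differed between the 2 batches more than between the 2 diets of F0. The array carries separate probe sets for the 5′ and 3′ ends of control transcripts, among them bacterial RNAs that are added to the sample and that no diet of the fly can change. The 5′ probe set of the added dap RNA read 4.47 to 5.23 (median 5.04) in CD-fed and 8.43 to 8.94 (median 8.73) in HSD-fed F1 males, as deposited. Its 5′ minus 3′ signal was higher by 2.78 log2 units in HSD-fed F1 males and by 3.09 in HSD-fed F2 males, with no overlap between diets. In F0 males that difference was 0.19 and the diets overlapped. The added thr RNA differed by 1.45 in F1 without overlap, while phe (0.26) and lys (0.18) overlapped. In F2 phe differed by 2.20 without overlap, and lys (0.77) overlapped. Among controls added for hybridization, bioD (0.37) and cre (0.14) differed in F1 without overlap, while bioB (0.01) and bioC (0.16) overlapped. Fly transcripts followed the same split: Act5C differed by 2.14, Gapdh by 0.91, eIF-4a by 3.09 and 18S rRNA by 1.74 in F1, each without overlap, and all overlapped in F0. The 5′ minus 3′ signal thus moved with diet and batch in F1 and F2, and its part in the changes of single genes was not tested.

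**Figure D1:**
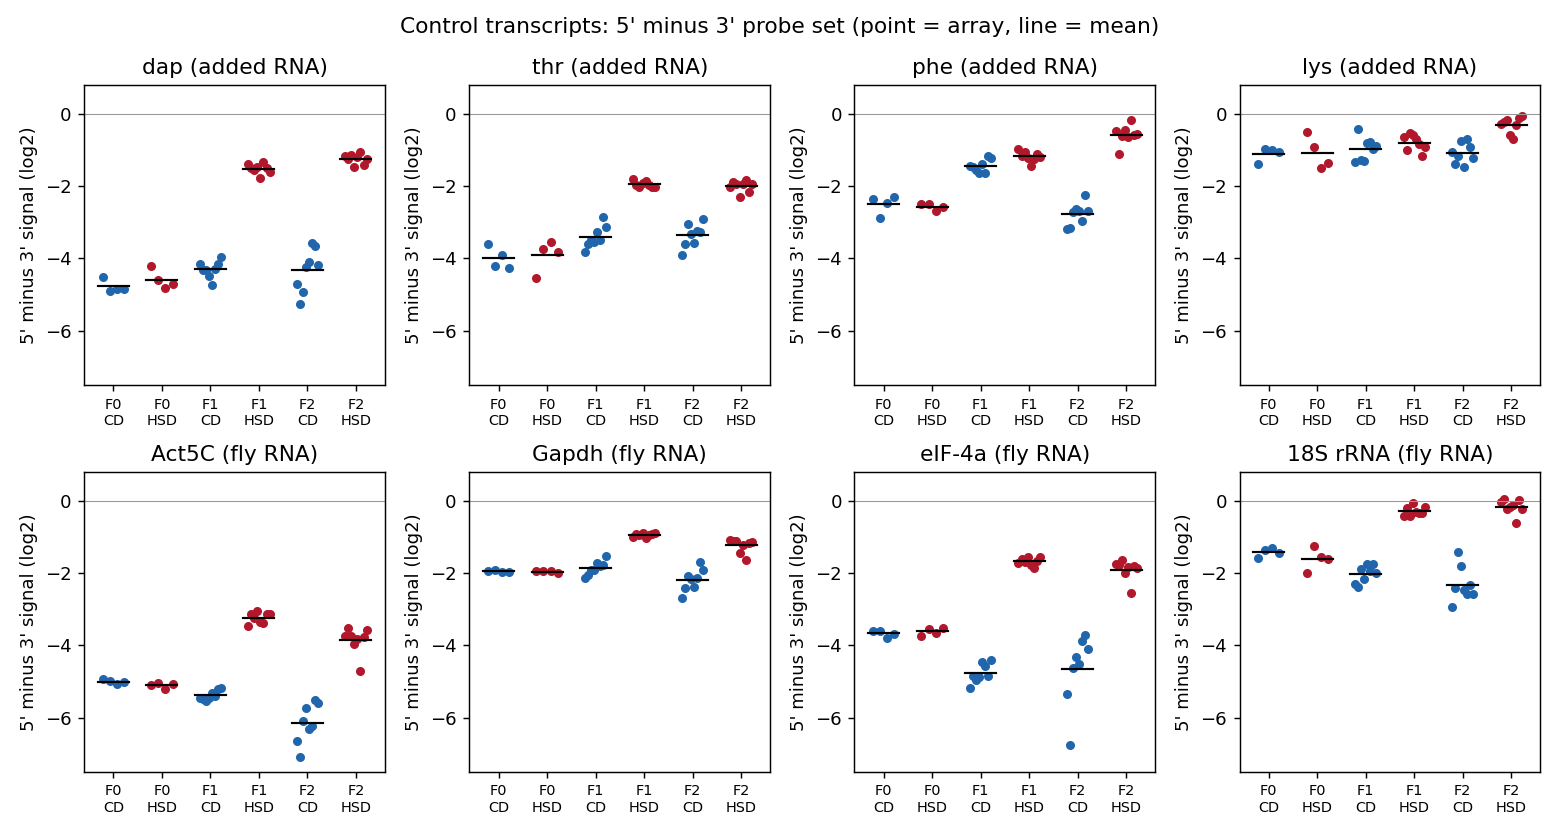
5′ minus 3′ probe set signal (log2, deposited values) of 8 control transcripts in every male array, by generation and own diet. Blue points are CD-fed and red points HSD-fed arrays, and lines are means. For dap the HSD-fed arrays of F1 and F2 lie at -1.78 or above, and the arrays of both diets in F0 and the CD-fed arrays of F1 and F2 at -3.58 or below.

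Of 11135 genes tested, 938 (8.42%) changed by a large amount. In HSD-fed F1 males 514 were higher (4.62%) and 424 lower (3.81%), and in 936 of them (4.61% of genes higher, 3.8% lower) all 8 arrays of 1 diet lay beyond all 8 of the other. All 938 had the same sign in both ancestries, which their choice by the change over both ancestries together nearly fixed in advance. At least 2 log2 units separated the diets in 78 higher and 54 lower genes, and at least 3 in 14 and 16. For each gene list below, 4.62% higher and 3.81% lower over all genes is the background of its large counts. With changes of any size counted, 84.9% of genes passed the adjusted p alone in F1 and 31.1% in F0 males. The diets did not overlap in 62.1% and 32.8%. F1 had 8 arrays on each diet and F0 4, which alters both measures, so these shares are not like for like. The median absolute change was 0.34 in F1, 0.09 in F0 and 0.27 in F2 males. The balance of rises and falls depended on the scaling. Deposited values, whose median change over all genes was 0.46, gave 1523 higher and 183 lower (89.3% higher), and centring each array on its median gave 424 higher and 715 lower (37.2% higher). Without the 2 arrays with more female-limited transcripts, 548 were higher and 468 lower.

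F0 males, in which both diets shared a batch, gave 82 large changes by the same rule (0.749% of 10950 genes tested), 34 higher (0.311%) and 48 lower (0.438%). Of the 34 higher genes in F0, 19 were also large and higher in F1 males, and of 47 lower genes tested in F1, 32 were also large and lower. Read the other way, the share of rises that passed the adjusted p in F0 was near the background. Of 482 genes large and higher in F1 and tested in F0, 108 (22.4%) passed the adjusted p as higher in F0, where 18.2% of all genes did. Of 408 large and lower in F1, 105 (25.7%) passed as lower, where 12.9% of all genes did, and 114 (27.9%) passed as higher. The F0 change was within 0.25 of 0 for 378 of the 482 and 258 of the 408. The share of all genes within 0.25 was not taken. The median absolute F0 change over all genes was 0.09, so such small changes were common. By the large rule 19 of the 482 (3.94%) were higher in F0, beside 0.311% of all genes. Of the 408, 32 (7.84%) were large and lower in F0, beside 0.438%. In F2 males, where diet and batch again coincided, 476 of 510 (93.3%) passed as higher, beside 35.9% of all genes, and 398 of 406 (98.0%) as lower, beside 38.6%. By the large rule F2 males had 596 genes (5.35%), 284 higher (2.55%) and 312 lower genes (2.80%), and 126 higher and 941 lower in deposited values.

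**Figure D2:**
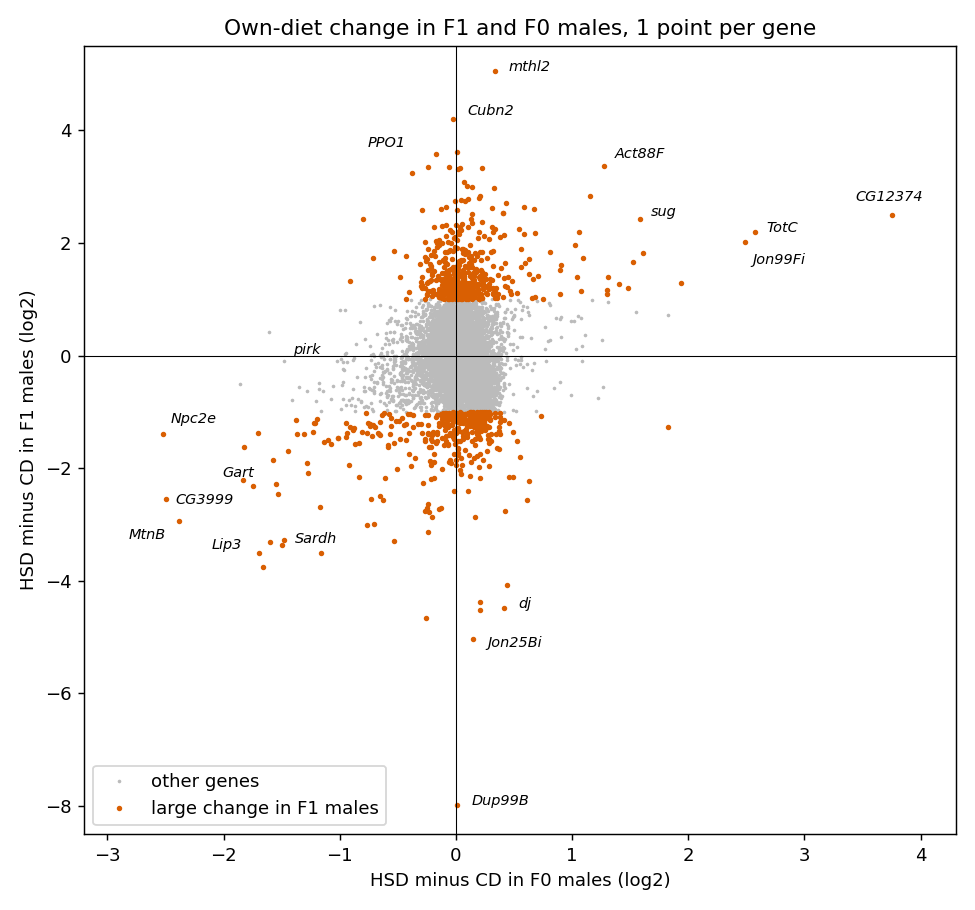
Change with own diet in F1 males (vertical axis, log2) against that in F0 males (horizontal axis, log2), 1 point per gene tested in both. Orange points changed by a large amount in F1. A few, such as CG3999, MtnB, sug and CG12374, also lie far from 0 in F0. Most, such as Dup99B, mthl2 and Cubn2, lie near 0 in F0, as do most of the other genes.

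Of 15 one-carbon genes, of glycine and folate metabolism, 5 were large and lower in HSD-fed F1 males and 0 large and higher. CG3999 encodes the glycine dehydrogenase that splits glycine in mitochondria, and in the CD-fed arrays it ran from 10.46 to 10.70 (median 10.59) and in the HSD-fed arrays from 7.97 to 8.17 (median 8.02). Its change was -2.54 (SE 0.04, adjusted p = 1.19e-19), rank 32 among the falls. The F0 change was -2.50 and the F2 change -2.59. With the 40 male arrays normalized together (the joint scale, on which F0, F1 and F2 still lie in separate batches and normalization sets), its mean was 10.30 ± 0.05 in CD-fed F0 (n = 4) and 10.39 ± 0.08 in CD-fed F1 (n = 8). On HSD it was 7.85 ± 0.06 in F0 and 7.79 ± 0.07 in F1, and the F1 change minus the F0 change was -0.14 (SE 0.09, adjusted p = 0.139), or 0.49 (adjusted p = 8.90e-06) in deposited values. On the joint scale each diet stood at nearly the same level in both generations. The sarcosine dehydrogenase gene Sardh ran over 8.66 to 8.89 (median 8.69) in the CD-fed and 5.38 to 5.60 (median 5.46) in the HSD-fed arrays, a change of -3.27 (SE 0.04, adjusted p = 1.19e-20) beside -1.48 in F0. Nmdmc and pug, whose enzymes interconvert folate forms, changed by -1.70 and -1.56, and in F0 by -1.45 and -1.08. The list ran up to 0.52, with a median of -0.58 beside 0.00 over all genes, or -0.09 beside 0.46 in deposited values. In F0, 9 of 15 passed as lower and 1 as higher, beside 12.9% and 18.2% of all genes, with a median of -0.44.

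In purine synthesis 3 genes fell. Gart, which encodes an enzyme with several steps of the pathway, ran over 12.22 to 12.43 (median 12.40) in the CD-fed and 9.96 to 10.16 (median 10.10) in the HSD-fed arrays. The change was -2.28 (SE 0.04, adjusted p = 1.41e-18), and in F0 -1.55 (adjusted p = 3.80e-08). Adsl, the adenylosuccinate lyase gene, changed by -2.08 (F0 -1.27), and Pfas, whose enzyme acts early in the pathway, by -1.57 (F0 -0.87). For none of these did the diets overlap in F1, nor did they in 62.1% of all genes. Of 11 members tested 3 were large and lower and 0 large and higher. Their median was -0.52, or 0.02 in deposited values. In F0 10 of 11 passed as lower, beside 12.9% of all genes, with a median of -0.43.

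**Figure D3:**
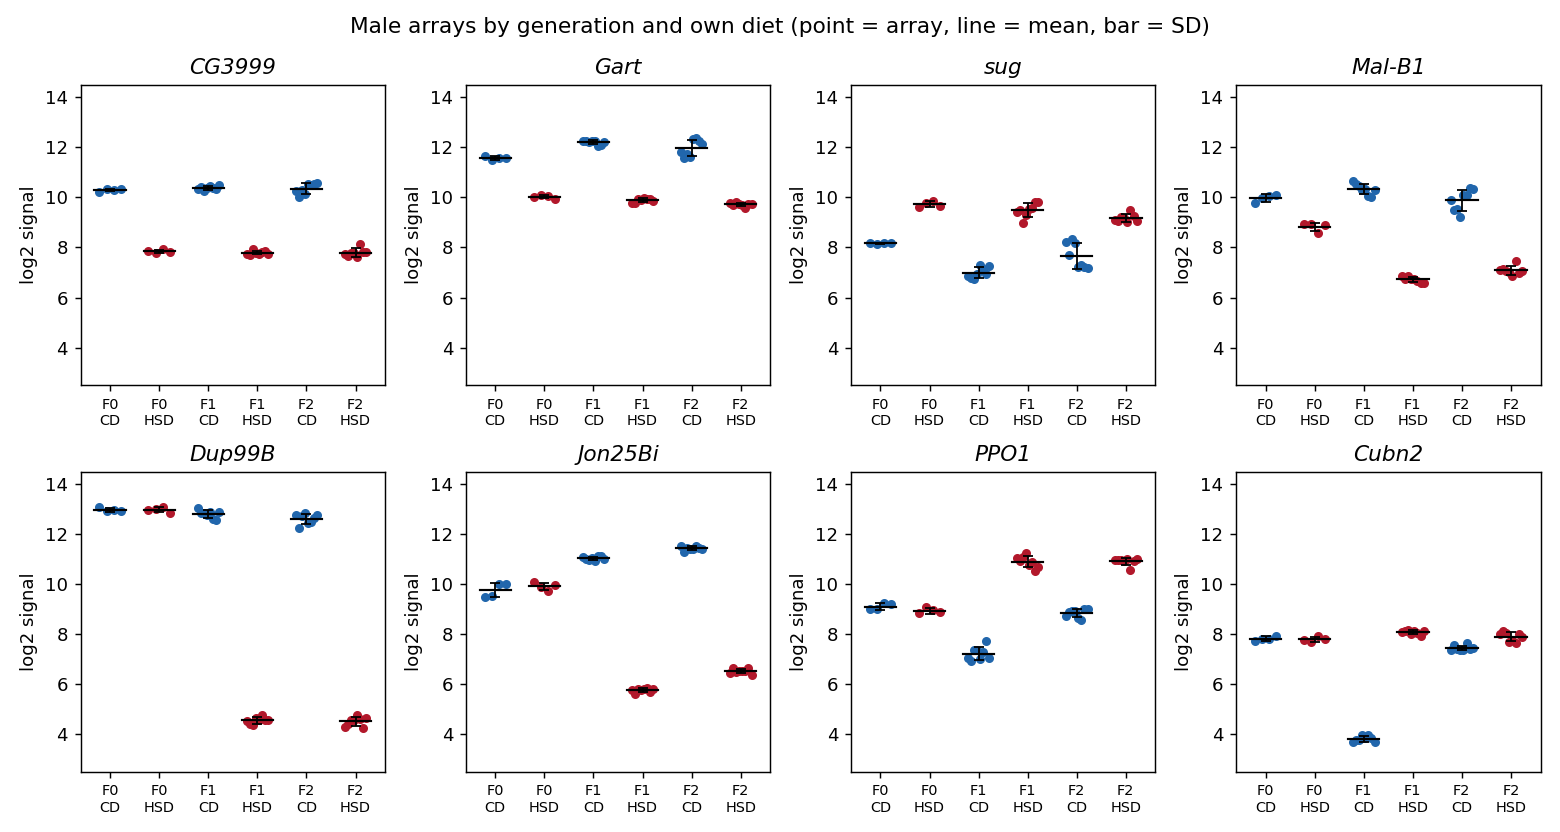
Log2 signal of 8 genes in each of the 40 male arrays, normalized together, by generation and own diet (blue CD, red HSD). Points are arrays, lines means and bars SD. CG3999 and Gart step down with HSD in every generation, whereas Dup99B and Jon25Bi are low in HSD-fed F1 and F2 males alone, and Cubn2 is low in CD-fed F1 males alone.

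Of 13 sugar digestion genes, maltases and related glucosidases among them, 4 were large and lower with HSD and 0 large and higher. Mal-B1, a maltase gene, ran over 10.22 to 10.84 (median 10.51) in the CD-fed and 6.87 to 7.17 (median 7.04) in the HSD-fed arrays, a change of -3.51 (SE 0.06, adjusted p = 4.52e-19) and rank 9 among the falls, beside -1.16 in F0. Amyrel, an amylase-related gene, was at 9.11 to 9.61 (median 9.25) in the CD-fed and 6.42 to 7.06 (median 6.94) in the HSD-fed arrays, with a change of -2.46 (SE 0.07, adjusted p = 6.79e-16) beside -1.53 in F0. Mal-A4 and Mal-B2 changed by -1.54 and -1.47, and in F0 by -1.14 and -1.01. Mal-A1 differed by -0.18, below the size called large. Mal-B1, Amyrel, Mal-A4 and Mal-B2 were the 4 large falls. The list ran up to 0.74, with a median of -0.62, or -0.16 in deposited values. In F0 12 of 13 passed as lower, beside 12.9% of all genes. The glucosidase gene tobi, a target of insulin and glucagon-like signals, did not pass (0.06, adjusted p = 0.078, and of the other sign after median centring and cyclic loess), while its F0 change was -0.59 (adjusted p = 8.31e-06).

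Sugarbabe (sug), the zinc-finger factor induced by sugar, rose: in the CD-fed arrays it ran from 7.03 to 7.58 (median 7.21) and in the HSD-fed arrays from 9.17 to 10.02 (median 9.71). No CD-fed array reached an HSD-fed one. The change of 2.42 (SE 0.07, adjusted p = 2.14e-15) ranked 36 among the rises, beside 1.59 in F0 and 1.54 in F2. The F1 change exceeded the F0 change by 0.93 (SE 0.13, adjusted p = 1.26e-07), and on the joint scale the CD-fed mean was 8.17 ± 0.02 in F0 (n = 4) and 6.99 ± 0.22 in F1 (n = 8), the HSD-fed mean 9.73 ± 0.11 and 9.49 ± 0.27. It was the 1 large change among 13 genes of sugar sensing and transport. The hexokinase gene Hex-C changed by -0.63 (F0 -0.60) and Pepck1, of gluconeogenesis, by 0.54 (F0 0.31), both without overlap and below the size called large. Lack of overlap, as in sug, Hex-C and Pepck1, held for 62.1% of all genes in F1 males.

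Lipase genes changed in both directions. Lip3, a lipase gene induced by starvation, ran over 8.39 to 8.75 (median 8.50) in the CD-fed and 4.84 to 5.18 (median 5.05) in the HSD-fed arrays, a change of -3.50 (SE 0.05, adjusted p = 1.62e-19) beside -1.69 in F0. The predicted lipase genes CG6283 and CG6271 changed by -3.31 and -3.29, and in F0 by -1.60 and -0.53. In contrast CG18302, another predicted lipase gene, rose by 1.86 in F1 and changed by -0.53 (adjusted p = 6.67e-04) in F0. Over 16 members 2 were large and higher and 6 large and lower. Brummer (bmm), the main triglyceride lipase of the fat body, changed by -0.99 (F0 -0.53), just under the size called large.

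Both perilipin genes rose. Lsd-1, a perilipin that coats lipid droplets, lay at 9.62 to 10.07 (median 9.91) in the CD-fed and 11.58 to 11.67 (median 11.60) in the HSD-fed arrays, a change of 1.74 (SE 0.05, adjusted p = 5.02e-16) beside 1.09 in F0. The second perilipin gene, Lsd-2, rose by 1.32 (F0 0.48). Agpat1, of glycerolipid synthesis, rose by 1.93 from a signal near background, with an F0 change of -0.17 (adjusted p = 0.297). These were the 3 large changes among 15 fat synthesis genes, whose median was 0.16, or 0.39 in deposited values and -0.11 after median centring. The fatty acid synthase gene FASN1 (0.16) and ACC (-0.09), its acetyl-CoA carboxylase partner, changed little, FASN1 with the other sign after median centring and ACC with the other sign in deposited values.

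The receptor gene of adipokinetic hormone, AkhR, ran over 8.56 to 8.90 (median 8.79) in the CD-fed and 10.07 to 10.31 (median 10.14) in the HSD-fed arrays. Its change was 1.39 (SE 0.05, adjusted p = 7.42e-15), in F0 1.04, and its other probe set rose by 1.83. The activin-like ligand gene daw rose by 1.20 (F0 1.48). Those were the 2 large changes among 16 hormone and growth signalling genes. Akh itself differed by -0.45 (F0 -0.51) with the other sign in deposited values, the insulin-binding ImpL2 by 0.38 (F0 0.31) and Lip4, a target of FOXO, by 0.44 (F0 -0.05). The insulin-like peptide genes Ilp2 (0.16) and Ilp5 (-0.21, the other sign in deposited values) stayed below the size called large. whd, the carnitine palmitoyltransferase gene, and Gpdh1, of glycerol phosphate metabolism, rose by 1.34 and 1.36, but other probe sets of the same genes gave -0.45 for whd and 0.90, -0.14 and -0.58 for Gpdh1.

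Gut protease genes held large falls and large rises. Jon25Bi and Jon25Bii encode serine proteases of the midgut. Jon25Bi ran over 11.09 to 11.30 (median 11.20) in the CD-fed and 6.03 to 6.23 (median 6.20) in the HSD-fed arrays, a change of -5.04 (SE 0.04, adjusted p = 2.33e-23) that ranked 2 among all falls, while its F0 change was 0.15 (adjusted p = 0.44). Jon25Bii changed by -4.38 (F0 0.20, adjusted p = 0.41). Among the rises, Jon66Ci changed by 3.33 (F0 0.22, adjusted p = 0.0632). The predicted carboxypeptidase gene CG12374 was at 6.42 to 7.01 (median 6.65) in the CD-fed and 9.13 to 9.30 (median 9.19) in the HSD-fed arrays, a change of 2.49 (SE 0.06, adjusted p = 7.80e-17), and Jon99Fi rose by 2.01, and these 2 rose also in F0, by 3.75 and 2.49. Of 26 members tested, 4 were large and higher and 5 large and lower, and in F0 2 and 0. The lysozyme gene LysX rose by 3.36 in F1 (F0 -0.24, adjusted p = 0.117), 1 of 3 lysozyme genes tested.

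The genes of 3 metallothioneins, small proteins that bind zinc and copper, fell. MtnD ran over 13.08 to 13.27 (median 13.14) in the CD-fed and 9.49 to 10.02 (median 9.78) in the HSD-fed arrays, a change of -3.36 (SE 0.05, adjusted p = 3.75e-19) beside -1.50 in F0, and MtnB changed by -2.94 (F0 -2.38). MtnC changed by -1.94, and in F0 by 0.05 (adjusted p = 0.711). They were the 3 large changes among 12 metal genes. In detoxification, GstD8 and GstD5, delta-class glutathione transferases, changed by -1.62 and -1.49 (F0 -1.83 and -1.11), and GstE4 by 1.99 (F0 -0.17, adjusted p = 0.246). Over 30 glutathione transferases 1 was large and higher and 2 large and lower, and over 62 cytochrome P450 genes 5 and 5, with Cyp4ac2 at 1.88 and Cyp6a14 at -1.96. These shares were 3.33% and 6.67% for the transferases and 8.06% each way for the P450 genes, beside 4.62% higher and 3.81% lower over all genes. The corresponding F0 counts past the adjusted p were 2 higher and 20 lower, and 5 higher and 37 lower. Over all genes in F0, 18.2% passed as higher and 12.9% as lower.

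The sterol-binding protein gene Npc2e changed by -1.39 and Npc2h by 1.64 (F0 -2.52 and 0.59). Of 20 antimicrobial peptide genes 3 were large and lower and 0 large and higher. Def, the defensin gene, lay at 9.81 to 10.31 (median 10.10) in the CD-fed and 8.66 to 9.51 (median 8.82) in the HSD-fed arrays, a change of -1.20 (SE 0.09, adjusted p = 2.88e-10) beside -1.22 in F0. PGRP-SC2, whose amidase breaks down bacterial peptidoglycan, changed by -1.41 (F0 -0.66). pirk, whose product dampens Imd immune signalling, differed from F0: it ran over 9.34 to 9.53 (median 9.46) in the CD-fed and 8.41 to 9.86 (median 9.31) in the HSD-fed arrays, which overlapped, its change of -0.10 (adjusted p = 0.484) did not pass and had the other sign in deposited values, and F0 gave -1.48. The F1 change minus the F0 change was 1.34 (SE 0.18, adjusted p = 3.50e-08). Lsp2, a storage protein gene of the fat body, changed by -0.12 in F1, with the other sign in deposited values, and by -0.97 in F0, a difference of 0.86 (SE 0.06, adjusted p = 8.68e-15).

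Blood cell genes stood highest of the 35 lists by median in F1 males. Hemocytes, the fly's blood cells, engulf microbes and make melanin. PPO1 and PPO2, the prophenoloxidases of crystal cells, rose: PPO1 ran over 7.21 to 7.99 (median 7.45) in the CD-fed and 10.72 to 11.43 (median 11.08) in the HSD-fed arrays, a change of 3.58 (SE 0.11, adjusted p = 1.75e-15), and PPO2 changed by 3.34 (SE 0.09). The phagocytic receptor genes NimC1 and eater rose by 2.80 and 2.77. Of 20 members tested 14 (70.0%) were large and higher and 0 large and lower, beside 4.62% and 3.81% of all genes, and the list median was 1.68. In F0, 0 were large, 5 passed as higher, beside 18.2% of all genes, and the median was 0.12. In F2 10 were large and higher, beside 2.55% of all genes, with a median of 1.07. On the joint scale PPO1 averaged 9.11 ± 0.13 and 8.94 ± 0.11 in CD-fed and HSD-fed F0 males (n = 4), with CD-fed F1 males below these (7.23 ± 0.27, n = 8) and HSD-fed F1 males above them (10.90 ± 0.23, n = 8). In whole flies a change in the number of cells of a type and in RNA per cell cannot be told apart.

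Of 22 muscle genes 6 were large and higher (27.3%) and 0 large and lower. Act88F, the flight muscle actin, ran over 8.50 to 9.04 (median 8.82) in the CD-fed and 11.90 to 12.37 (median 12.19) in the HSD-fed arrays, a change of 3.37 (SE 0.07, adjusted p = 1.59e-17) beside 1.27 (adjusted p = 4.85e-05) in F0. Flightin (fln), a thick filament protein, TpnC4, a troponin C, and up, which encodes troponin T, rose by 2.60, 2.24 and 1.54. Their F0 changes were -0.13, 0.04 and 0.02 and did not pass (adjusted p = 0.199, 0.61 and 0.924). On the joint scale fln averaged 9.68 and 9.55 in CD-fed and HSD-fed F0, 7.93 in CD-fed F1 and 10.58 in HSD-fed F1 males. The means of TpnC4 were 10.63, 10.68, 9.15 and 11.42, and those of up 8.73, 8.74, 9.11 and 10.68. CD-fed F1 males lay farther from F0 for fln and TpnC4, and HSD-fed F1 males for up. The list ran from -0.35 to 3.37 with a median of 0.46, or 0.93 in deposited values, and in F2 5 were large and higher and 0 large and lower.

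Of 10 Turandot and heat shock genes 5 were large and higher in F1 males and 0 large and lower, and the lowest was at -0.57. Hsp68, an inducible chaperone of the Hsp70 family, lay at 8.42 to 8.56 (median 8.48) in the CD-fed and 8.998 to 10.77 (median 10.19) in the HSD-fed arrays, a change of 1.68 (SE 0.18, adjusted p = 9.00e-08). Hsp26 rose by 1.42, DnaJ-1 by 1.20 and the co-chaperone gene stv by 1.39. The F2 changes of these 4 genes were 0.44, -0.24, -0.16 and 0.63, and the F0 changes 0.05, -0.15, -0.29 and -0.02. The difference between F1 and F2 was not tested. The other large rise was that of TotC, described with ancestry below.

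Testis and sperm genes had negative changes in F1 males. The 33 members tested ran from -4.48 to -0.07 (median -0.59, or -0.11 in deposited values). Of them 4 were large and lower (12.1%) and 0 large and higher, beside 3.81% and 4.62% of all genes. In F0 23 of 33 passed as higher, beside 18.2% of all genes, with a median of 0.23. dj (don juan), a sperm tail gene, ran over 11.46 to 11.77 (median 11.63) in the CD-fed and 6.997 to 7.28 (median 7.19) in the HSD-fed arrays, a change of -4.48 (SE 0.05, adjusted p = 3.99e-21), whereas its F0 change was 0.41 (adjusted p = 0.0103). The difference between generations was -5.002 (SE 0.10, adjusted p = 1.44e-30). ProtA, a protamine-like sperm chromatin gene, janB and Mst87F changed by -1.40, -1.07 and -1.04. Of 635 male-limited genes 89 were large and lower and 1 large and higher, beside 3.81% and 4.62% of all genes, with a median of -0.59. Their mean signal was 10.15 to 10.34 in CD-fed and 9.60 to 9.72 in HSD-fed arrays. These values are on the quantile-normalized scale alone, and the size of such a fall depends on the scaling.

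Among 23 genes of accessory gland and ejaculatory duct 1 was large and lower (4.35%), near the 3.81% of all genes. Dup99B, a peptide of the ejaculatory duct related to sex peptide, had the largest fall of all genes: in the CD-fed arrays it ran from 12.71 to 13.16 (median 12.99) and in the HSD-fed arrays from 4.75 to 5.19 (median 4.96). Its change was -7.99 (SE 0.07, adjusted p = 1.30e-22), beside -8.17 in F2 and 0.01 (adjusted p = 0.897) in F0. The list median was 0.01, or 0.32 in deposited values and -0.18 after median centring. On the joint scale Dup99B was at 12.98 ± 0.07 and 12.99 ± 0.10 in CD-fed and HSD-fed F0 males (n = 4) and at 12.80 ± 0.16 in CD-fed F1 males (n = 8), and the HSD-fed F1 (4.55 ± 0.13) and F2 (4.51 ± 0.19) males stood apart.

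The difference between the F1 and F0 changes was tested over the 40 male arrays. It was large for 1157 of 11294 genes (10.2%), 539 higher (4.77%) and 618 lower (5.47%), or 1617 and 183 in deposited values and 425 and 825 after median centring. Besides Dup99B, Jon25Bi and dj, the lowest were Jon25Bii (-4.74), LManIII (-4.70), named for lysosomal alpha-mannosidase, and Tengl4 (-4.64), an endonuclease G-like gene. The highest were mthl2, a methuselah-like receptor gene (4.91), Cubn2, named for cubilin (4.28), PPO1 (3.84), l(3)80Fg (3.81), the non-coding RNA gene lncRNA:alphagamma-element:CR32865 (3.81) and dsf, a nuclear receptor gene (3.77). In F1, mthl2 was first among the rises and ran over 4.15 to 5.36 (median 4.64) in the CD-fed and 9.25 to 10.31 (median 9.73) in the HSD-fed arrays, a change of 5.06 (SE 0.17, adjusted p = 1.04e-14).

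Levels on the joint scale were set beside those of F0. Cubn2 averaged 7.82 ± 0.09 and 7.80 ± 0.09 in CD-fed and HSD-fed F0 males (n = 4) and 8.07 ± 0.07 in HSD-fed F1 males, and the CD-fed F1 males were at 3.82 ± 0.11 (n = 8). For lectin-33A, a predicted sugar-binding protein gene, and the corneal lens gene retinin, both F1 groups lay below F0, the CD-fed group farther. The means of lectin-33A were 8.85 and 8.87 in CD-fed and HSD-fed F0, 8.02 in HSD-fed F1 and 4.54 in CD-fed F1 males, and those of retinin 11.40, 11.43, 10.31 and 7.98. In F2 lectin-33A and retinin had changes of -0.45 and -0.35, opposite to their F1 changes of 3.32 and 2.28. By contrast LysX was at 5.94 and 5.72 in F0, 5.94 in CD-fed F1 and 9.48 in HSD-fed F1 males. Among 378 higher genes whose F0 change was within 0.25 of 0, the CD-fed F1 mean lay farther from the F0 level than the HSD-fed mean in 153 and the HSD-fed mean in 225 (59.5%). Among 258 such lower genes the counts were 51 and 207 (80.2%), and over all genes the HSD-fed mean was farther in 57.1%.

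At a limit of the 25th percentile of all probe sets (4.77), 4 genes were under it in all arrays of 1 diet and above the array median (7.09) in all arrays of the other. Tengl4 and the UDP-glycosyltransferase gene Ugt35B1 were under it with HSD, with changes of -4.52 (SE 0.05, adjusted p = 8.26e-21) and -4.66, and were so in F2 males too. Cubn2 and dsf were under it with CD, with changes of 4.20 and 3.84. In F0 males 0 genes met this rule. CG15263, rank 8 among the falls, changed in the same direction in all generations, by -3.75 in F1, -1.66 in F0 and -5.61 in F2.

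**Figure D4:**
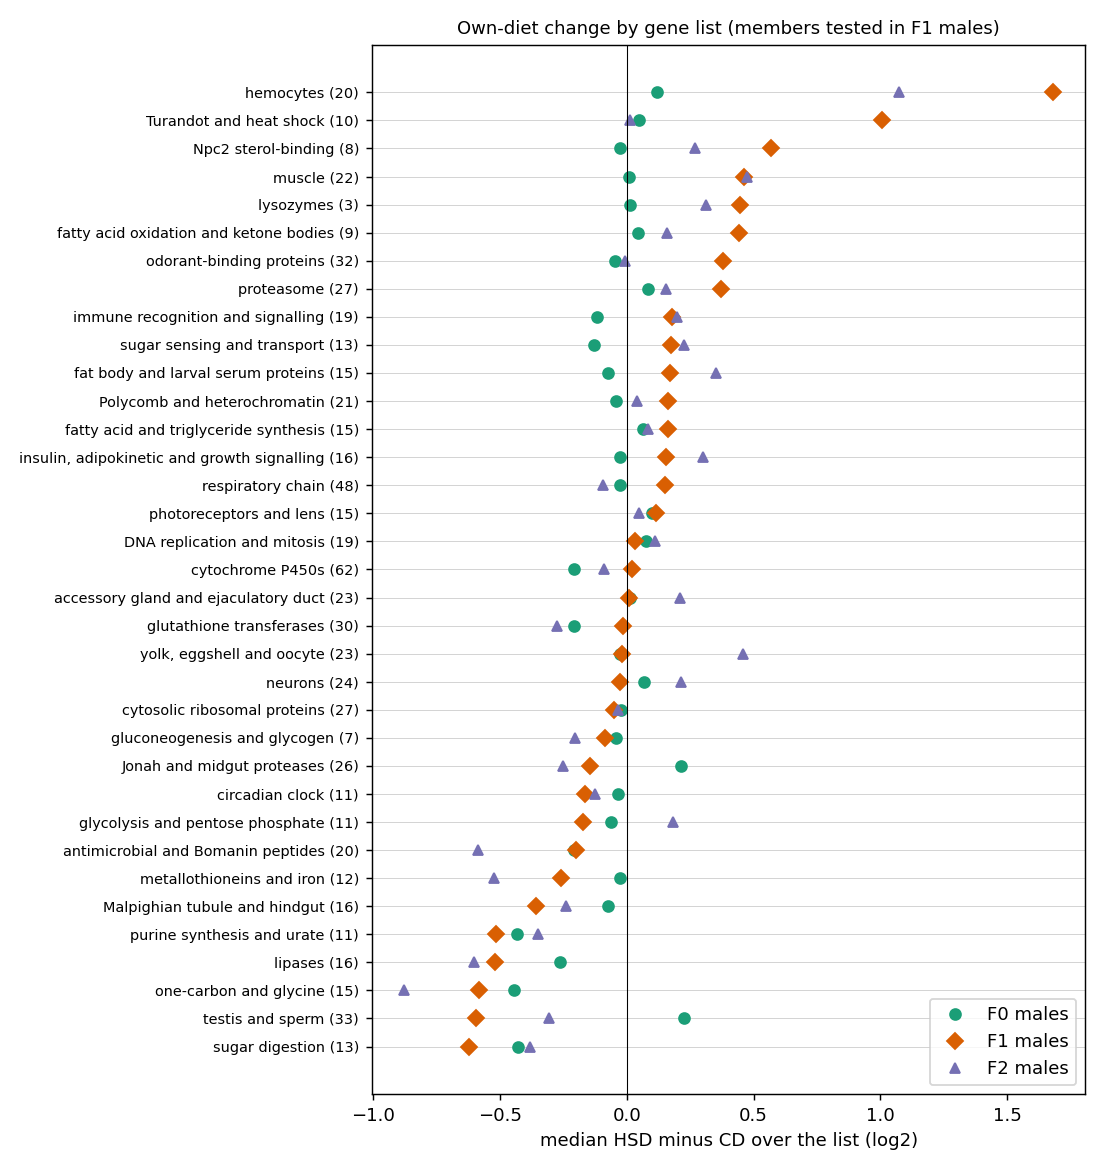
Median change with own diet (log2) of each of 35 gene lists in F1 males (orange diamonds), F0 males (green circles) and F2 males (purple triangles), with the number of members tested in F1 in brackets. Sugar digestion, one-carbon, purine and lipase genes lie below 0 in all 3 generations, whereas hemocyte genes lie near 0 in F0 and above 1 in F1 and F2.

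Ribosomal and proteasome genes held no large change. Of 27 cytosolic ribosomal protein genes and 27 proteasome genes 0 were large, with medians of -0.05 (0.16 in deposited values) and 0.37 (0.87 in deposited values), and in F0 -0.02 and 0.08. The 27 proteasome genes ran from 0.04 to 0.67. Of 48 respiratory chain genes 1 was large: ATPsynbeta, a subunit of ATP synthase, at 2.17, while a second probe set of the gene gave -0.24. Odorant-binding protein genes had 7 large rises and 1 large fall among 32 (21.9% and 3.12%), beside 4.62% and 3.81% of all genes. Obp99b changed by 1.58 (F0 0.56), but it read 14.69 in all 4 HSD-fed arrays of HSD ancestry, a value fixed by its rank in quantile normalization, so the size of its change is not exact.

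Probe sets of the same gene disagreed in F1 more than in F0. For 742 genes with more than 1 bright probe set, the change ranged over a median of 0.60 log2 units between probe sets in F1 males and 0.10 in F0 males, and it differed by at least 1 in 209 genes in F1 and 0 in F0. Among 58 genes with a large change and another bright probe set, that other one moved the same way by at least 0.5 in 30 and had the opposite sign in 19. Probe sets that can match several transcripts were those of Pfas, pug, daw, ImpL2, Agpat1, whd, DnaJ-1, stv, l(3)80Fg, CG8112 and CG13947. For l(3)80Fg both rose, by 3.62 and 3.41, and for rdgB, a phototransduction gene, the probe sets gave -1.23 and 0.16. Whether this spread comes with the 5′ signal of the control transcripts was not tested.

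Large changes in the same direction lay next to each other on the chromosomes more often than the background. Neighbours here are consecutive tested genes, and genes between them that were not tested are skipped. Of 512 placed higher genes 16.6% had a neighbour that was also large and higher, beside 8.97% of all placed genes, and of 421 lower genes 15.4% had such a lower neighbour, beside 7.39%. The longest runs of falls were LManIII to LManVI, with changes from -4.08 to -1.54, and a lipase run that holds CG6283 and CG6271. The F0 changes of LManIII, LManV and LManVI were 0.44, 0.46 and 0.29.

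Ancestry was set against own diet as a difference of changes, in which each comparison of ancestries lies within 1 batch. It asks whether the F0 males' diet altered how their sons differed by diet. Of 11135 genes 543 (4.88%) passed, 1.84% of genes being higher and 3.04% lower in the own-diet change with HSD ancestry than with CD ancestry, and 2536 had an unadjusted p under 0.05. Deposited values gave 107 higher and 310 lower. The difference reached 1 log2 unit in 3 genes (0.0269%), all lower. The count fell to 195 (68 higher and 127 lower) without the 2 arrays with more female-limited transcripts. It also moved by more than 1.5 times when 1 array was left out: to 871 without CD-fed CD-ancestry replicate 2, and to 265 to 338 without replicate 1 of that group, replicate 1 or 4 of the HSD-fed CD-ancestry group, replicate 1 or 4 of the CD-fed HSD-ancestry group, or replicate 1, 2 or 4 of the HSD-fed HSD-ancestry group.

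TotC, a secreted stress peptide gene of the Turandot family, had the lowest difference, -3.10 (SE 0.83, adjusted p = 0.0421). With CD ancestry its CD-fed arrays read 8.42, 6.23, 8.51 and 6.70 and its HSD-fed arrays 11.34, 10.58, 11.12 and 11.84, a change of 3.76. With HSD ancestry the CD-fed arrays read 8.80, 10.49, 10.91 and 8.75 and the HSD-fed arrays 11.18, 9.56, 11.10 and 9.72, a change of 0.65. The diets did not overlap with CD ancestry and overlapped with HSD ancestry, and the CD-fed arrays of the 2 ancestries did not overlap. In the CD-fed HSD-ancestry group the lowest arrays were replicates 1 and 4, the 2 with more female-limited transcripts, and without them the difference was -4.07 (adjusted p = 0.0228). The call was lost when any of 10 arrays was left out in turn, with an adjusted p of 0.0524 to 0.0830. Over all F1 males TotC changed by 2.20 (SE 0.55, adjusted p = 0.00119), but with the HSD-ancestry arrays alone by 0.65 (adjusted p = 0.310).

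phu had a smaller rise with HSD ancestry. Its CD-fed arrays read 7.07, 6.95, 6.92 and 6.84 with CD ancestry and 7.63, 7.71, 7.50 and 7.58 with HSD ancestry. Its HSD-fed arrays read 9.54, 9.45, 9.56 and 9.39 with CD ancestry and 9.20, 9.07, 9.08 and 9.02 with HSD ancestry. None of the 4 groups overlapped, and the own-diet change was 2.54 with CD and 1.49 with HSD ancestry, a difference of -1.06 (SE 0.08, adjusted p = 7.94e-06). mthl2 rose by 5.59 and 4.53, a difference of -1.07 (SE 0.23, adjusted p = 0.0204). CG33337 fell further with HSD ancestry (-2.49 against -1.56, difference -0.93 (SE 0.18, adjusted p = 0.0114)), its CD-fed arrays being higher by 1.08 with HSD ancestry and its HSD-fed arrays by 0.16. CG13026 differed by -0.82 (SE 0.20, adjusted p = 0.0279).

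In the other direction CG8112 changed by -1.26 with CD and by -0.57 with HSD ancestry, a difference of 0.69 (SE 0.10, adjusted p = 0.00186), and CG13947 had changes of -3.33 and -2.65. Acsx1L (0.83), the cecropin gene CecB (0.73) and CG16758 (0.67) were the others of the 5 highest. Without the 2 arrays with more female-limited transcripts, CG33337 (adjusted p = 0.0675) and CG13026 (adjusted p = 0.0709) no longer passed. When single arrays were left out in turn, the call was lost for CG13026 in 6 cases and for CecB in 5.

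**Figure D5:**
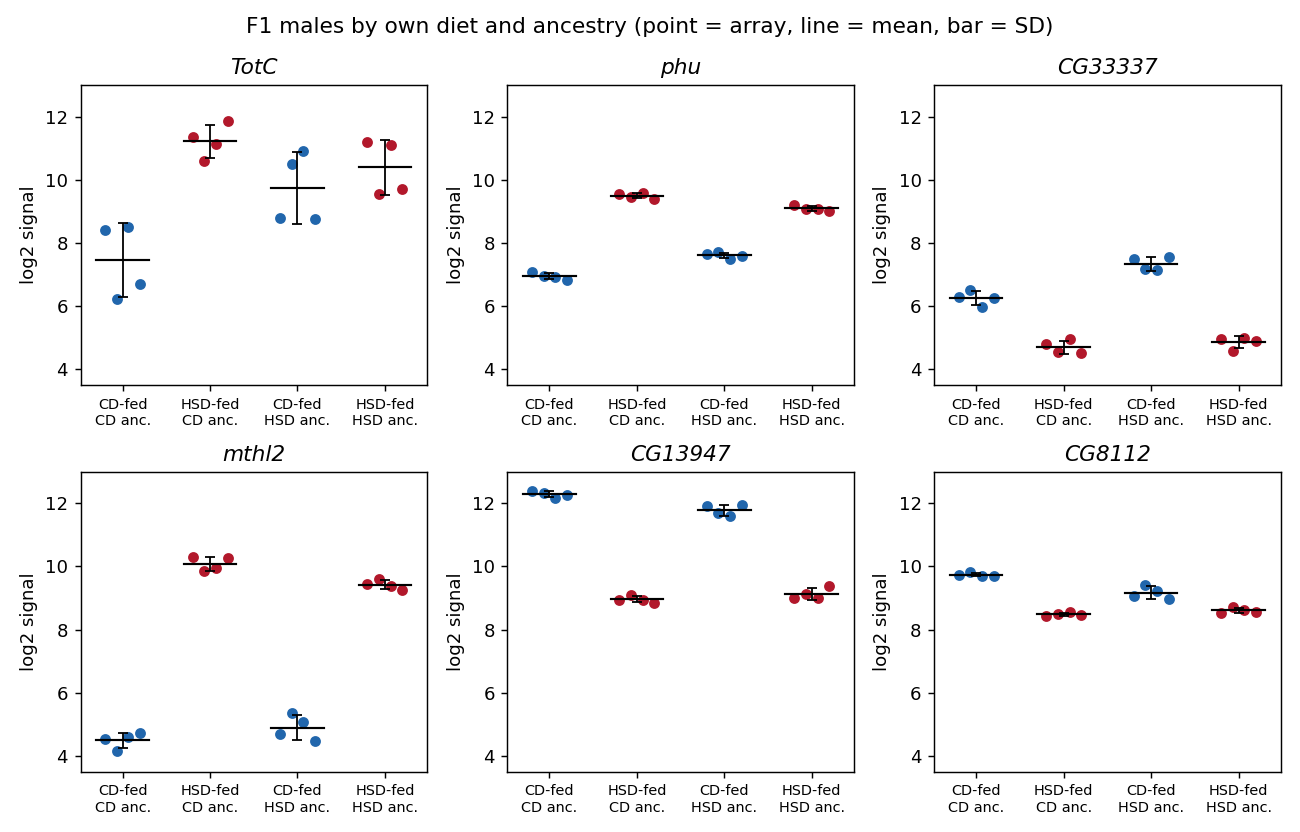
Log2 signal of 6 genes in the 16 arrays of F1 males, by own diet (blue CD, red HSD) and ancestry. Points are arrays, lines means and bars SD. The step from CD-fed to HSD-fed is smaller with HSD ancestry for TotC, phu, mthl2, CG13947 and CG8112, and larger for CG33337.

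In F1 females, whose diets were also in separate batches, the change had the same sign as in males for 800 of the 938 genes. It reached 1 log2 unit the same way for 376, given without a test. The 938 were chosen in males, and the same shares over all genes were not taken, so no background stands beside these counts. CG3999 changed by -3.17 and Act88F by 3.18 in F1 females.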

How the data were processed

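RNA of whole flies was measured on 80 Affymetrix Drosophila Genome 2.0 arrays, of which 16 F1 male, 8 F0 male and 16 F2 male arrays were tested here. F1 female arrays were used without a test. Signals were deposited on a log2 scale for each probe set and were made by the authors with RMA, per the submitters' processing notes, which also name limma. Versions are not given in the sources used here.

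Of 18952 probe sets, 183 controls, 402 with several gene symbols and 4720 with none were left out of the gene tests. The 13647 others covered 11982 genes, and the probe set with the highest mean stood for a gene. Symbols came from the platform annotation; 13544 probe sets matched a current gene table by Entrez ID and 0 symbols were updated. The arrays of each fit were quantile-normalized together, dim genes, below the 25th percentile of the table by their mean in each group, were dropped, and limma 3.58.1 (R 4.3.3; lmFit, eBayes, two-sided, Benjamini-Hochberg over all genes tested) was fitted with ancestry as a term. A large change had an adjusted p under 0.05 and at least 1 log2 unit. The 40 arrays of males were fitted together for the difference between F1 and F0, and their joint levels were added after the data were seen. The control probe sets were read from the deposited values.

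A gene counted as sex-limited when CD-fed F0 males and females differed by 5 log2 units or more. Neighbouring genes were consecutive tested genes in the order of the RefSeq gene table (assembly Release 6 plus ISO1 MT). Gene lists are described by counts and medians, with no set test. The genes named are the 12 largest rises and 12 largest falls without overlap, up to 4 large members per list, a panel of 27 genes whatever their values, 5 differences by ancestry on each side and 6 differences from F0 on each side, of which those the text needs are printed. The members and lists were chosen with earlier results of these data known.

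Replicate numbers gave no consistent pairing of the arrays. Same-numbered arrays of different F1 groups had correlations from -0.17 to 0.28 in their deviations from the group means, over 0.1 in 3 of 24 pairs. The highest was that of replicate 4 in the 2 HSD-fed groups, and shared handling of single pairs was not tested. The scripts were tested on simulated data, which held no batch shift. Recovered means an adjusted p under 0.05 with the right sign. Of 100 genes changed by 1 log2 unit, 100% were recovered for own diet in F1 males, with 13 false calls among the unchanged genes. Without a batch shift, the simulation cannot tell how many calls in the real arrays belong to the batch. Of 100 genes changed by 0.5, 82% were recovered for the difference by ancestry.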

Additional observations from a re-analysis of the deposited data

Results flagged for a closer look

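In a group of 4 arrays, 1 array stood apart from the other 3 in 17 of 392 pairs of a gene and an F1 group, where chance gives about 1 in 20 (19.6). The value minus the mean of the other 3 arrays follows in log2 units. In CD-fed males of CD ancestry dj was lower by -0.14 in replicate 4. In CD-fed males of HSD ancestry the differences were 0.26 for ATPsynbeta and 0.0198 for Mal-A4 in replicate 4, -0.0846 for Gpdh1 in replicate 1, -0.10 for Pepck1 in replicate 3 and 0.48 for dsf in replicate 2. In HSD-fed males of CD ancestry they were 0.35 for Agpat1 in replicate 1, 0.10 for Obp99b in replicate 4 (a step between ranks of the normalized scale) and 0.18 for rdgB in replicate 3. In HSD-fed males of HSD ancestry replicate 3 gave 0.59 for CecB, 0.69 for Def, -0.12 for Jon25Bi and -0.18 for LManV. In the same group replicate 1 gave -0.0309 for Cyp4ac2, replicate 2 gave 0.23 for Dup99B and -0.18 for up, and replicate 4 gave 0.18 for GstE4.

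The own-diet change differed between ancestries, by limma's test of the difference, for 10 named genes. With HSD ancestry minus CD ancestry, it was 0.83 for Acsx1L, 0.73 for CecB, 0.69 for CG8112, 0.68 for CG13947 and 0.67 for CG16758. It was -3.10 for TotC, -1.07 for mthl2, -1.06 for phu, -0.93 for CG33337 and -0.82 for CG13026.

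The own-diet change in F1 males differed from that in F0 males, again by limma's test of the difference, by -8.26 for Dup99B, -5.41 for Jon25Bi, -5.002 for dj, -4.74 for Jon25Bii, -4.70 for LManIII and -4.64 for Tengl4. On the other side it was 4.91 for mthl2, 4.28 for Cubn2, 3.84 for PPO1, 3.81 for l(3)80Fg, 3.81 for lncRNA:alphagamma-element:CR32865 and 3.77 for dsf. The F1 change holds the batch as well as the diet.

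The control probe sets, which enter no gene test, also differed. The 5′ signal of the added RNAs was higher in HSD-fed than in CD-fed F1 males by 3.73 for dap, 2.81 for thr and 1.43 for phe, and by 0.44 for lys, near the 0.46 by which the median of all genes was higher in deposited values.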

How the results depend on the processing

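Own diet and batch coincide in F1 and in F2 males, so no setting separates them. The count of large changes in F1 males (938) was 1706 in deposited values and 298 at a threshold of 1.5 log2 units. It was 652 to 1139 under the other settings, and 925 to 975 when 1 array was left out. The difference from F0 (1157) was 1800 in deposited values, 1250 after median centring, and 1102 to 1189 when 1 array was left out. F2 males (596) gave 1067 in deposited values and 586 to 637 when 1 array was left out, and F0 males (82) gave 81 in deposited values and 76 to 86. The difference by ancestry (543) was 843 with a filter at the 50th percentile, 852 with a trended robust prior, 195 without the 2 arrays with more female-limited transcripts, 280 in the fit of 40 arrays, and 265 to 871 when 1 array was left out. With the replicate number as a block it was 329 and CecB lost its call (adjusted p = 0.0507), and the other counts stayed at 938, 82, 596 and 1157, though the numbers mark no known pairing. Gene lists with a median above 0 numbered 19 of 35, 31 in deposited values and 15 after median centring.

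Of 98 genes followed for own diet, values of the other sign came in deposited values for ACC (0.22), Akh (0.0593), Ilp5 (0.33), pirk (0.42), Lsp2 (0.19) and CecB (0.33), after median centring for tobi (-0.22) and FASN1 (-0.16), and after cyclic loess for tobi (-0.0258). With HSD-ancestry arrays only they were tobi -0.0271, pirk 0.0630, Acsx1L 0.00516 and CecB 0.23. Leaving out 1 array gave pirk -0.172 to 0.0214. The F1 minus F0 difference of CG3999 was 0.49 in deposited values and 0.00113 after median centring. Apart from the construction of each setting, the cause was not tested. A probe set near background gives a compressed change, which limits genes such as Agpat1, dsf, Cubn2 and CG33337 in their low group.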

Other observations

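Among genes whose change went one way in F1 and the other way in F2 males were lectin-33A and retinin, and Cubn2 and fln had smaller changes in F2 (0.46 and 0.77) than in F1 (4.20 and 2.60), a difference that was not tested. Runs of consecutive tested genes also included NimB5, He and NimC1, with changes from 1.25 to 2.80. Another held CG12506, CG13946 and CG13947, with changes from -2.99 to -1.14.

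In F1 females, given without a test, the change was 3.26 for Cubn2, 2.73 for dsf, -3.81 for Ugt35B1 and 0.02 for Tengl4.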
